A study of Mus musculus with 3 samples.

Results

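The 10 genes described here belong to the BCL2 family, and were taken by name from a list of 4 pro-survival members (Bcl2, Bcl2l1, Mcl1 and Bcl2a1b) and 6 pro-death members (Bax, Bak1, Bcl2l11, Bid, Bbc3 and Pmaip1), out of 23860 genes with a column in either count table. All 10 had a column in both tables. Liver non-parenchymal cells (NPCs) of C57BL/6J mice, obtained by collagenase perfusion, were captured with the BD Rhapsody system, which tags each cell and each RNA molecule before sequencing, and molecules (UMIs) were counted per gene and cell. The 2 libraries with a table were a WT library and an HFHC pool, which held cells of wild-type and Chi3l1-/- mice (Chil1-/- in the labels) fed a high-fat, high-cholesterol (HFHC) diet. No genotype for each cell was found in the tables analysed here. The knockout lacked Chi3l1 in the whole animal. The WT library was matched to its sample by elimination. Its sample is titled MCD, its table carries the name WT, its header names the library APAP0h, and the study describes wild-type mice on a normal chow diet, so its diet was not settled. With 1 library per condition, diet, genotype mix, capture and library cannot be told apart, and no test between the libraries was possible.

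BCL2 family proteins decide at the outer membrane of mitochondria whether a cell starts apoptosis. Pro-survival members hold the pore-forming effectors BAX and BAK1 in check, and BH3-only proteins such as BIM (Bcl2l11), BID, PUMA (Bbc3) and NOXA (Pmaip1) oppose the pro-survival members or activate the effectors. Blood and immune lineages are known to rely on different pro-survival members, with MCL1 important in neutrophils and BCL2 in resting lymphocytes. The study asked about death of Kupffer cells (KCs), the resident macrophages of the liver, so the family was followed in KCs beside monocytes, neutrophils, lymphocytes and endothelium.

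Of 30734 cells with 53720863 UMIs in the WT library, 23346 were kept, and of 21601 cells with 71981673 UMIs in the HFHC pool, 19625 were kept. Cell index numbers were shared by 756 cells of each library. Cells were clustered without the genes of the BCL2 family, and clusters were named from marker genes, so that each name below stands for cells like that type. KCs numbered 3134 in the WT library and 506 in the pool, monocytes 448 and 611, neutrophils 3142 and 341, T cells 2894 and 2587, natural killer (NK) or ILC1 cells 563 and 539, B cells 1375 and 845, and endothelial cells 2611 and 652. Although the samples were handled as NPCs, 30.1% and 54.0% of kept cells were hepatocyte-like. The defining markers were present in the classes, for example Clec4f at 6026 and 4103 CPM (a gene's UMIs relative to all UMIs of the class) in KCs. Cells of the pool were deeper in all 7 classes, with a median of 4436 UMIs in KCs of the WT library and 8870 in KCs of the pool. To obtain a level, the UMIs of all cells in a class and library were added up and expressed as CPM, with exact Poisson 95% intervals, and shares have exact binomial 95% intervals. Both cover counting error only. UMIs were not divided by transcript length, so genes are compared with each other only as shares of UMIs within a class. Chil1, the gene deleted in part of the pooled mice, had 20 UMIs in KCs of the WT library and 0 in KCs of the pool, and in neutrophils it stood at 623 and 236 CPM.

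Mcl1, a short-lived pro-survival protein, supplied more of the members' UMIs than the other 9 together in neutrophils, B cells, KCs and monocytes, and differed by less than 2-fold between the libraries in all 7 classes. In neutrophils it was at 3051 CPM (95% interval 2992 to 3110) in the WT library and at 2972 CPM (2853 to 3095) in the pool. Neutrophils exceeded the other 6 classes in both libraries, and Mcl1 made up 88.7% and 80.4% of the UMIs of all 10 members there. Monocytes came next, at 829 and 838 CPM. B cells, at 693 and 628 CPM, and KCs, at 652 and 623 CPM, followed with overlapping ranges. T cells stood at 349.7 and 349.6 CPM and NK or ILC1 cells at 349.9 and 289.7 CPM, again with overlapping ranges. Endothelial cells were lowest of the 7 classes at 235 and 209 CPM. The log2 ratio of the pool over the WT library lay between -0.27 in NK or ILC1 cells and 0.01 in monocytes. To compare shares of cells with a UMI, cells were thinned to 1000 UMIs and shallower cells were left out, here and below. That kept 1609 of 3142 neutrophils of the WT library and 338 of 341 of the pool, 2783 and 474 KCs, 442 and 611 monocytes, and 2509 and 2581 T cells. Of these, 92.6% and 92.0% of neutrophils held an Mcl1 UMI, against 45.5% and 41.98% of KCs. Hepatocytes, given here and below for comparison, held one in 9.95% and 12.996% of the 1357 of 7025 and 5194 of 10593 cells deep enough. Their Mcl1 level was 140 and 162 CPM. Free RNA was not told apart from their own expression, so their shares are not a floor. The median depth of all hepatocytes was 525 and 981 UMIs and that of all neutrophils 1009 and 2119 UMIs. Mcl1 lies at chr3:95658788-95663176 on the plus strand (GRCm38, GENCODE release M21).

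**Figure D1:**
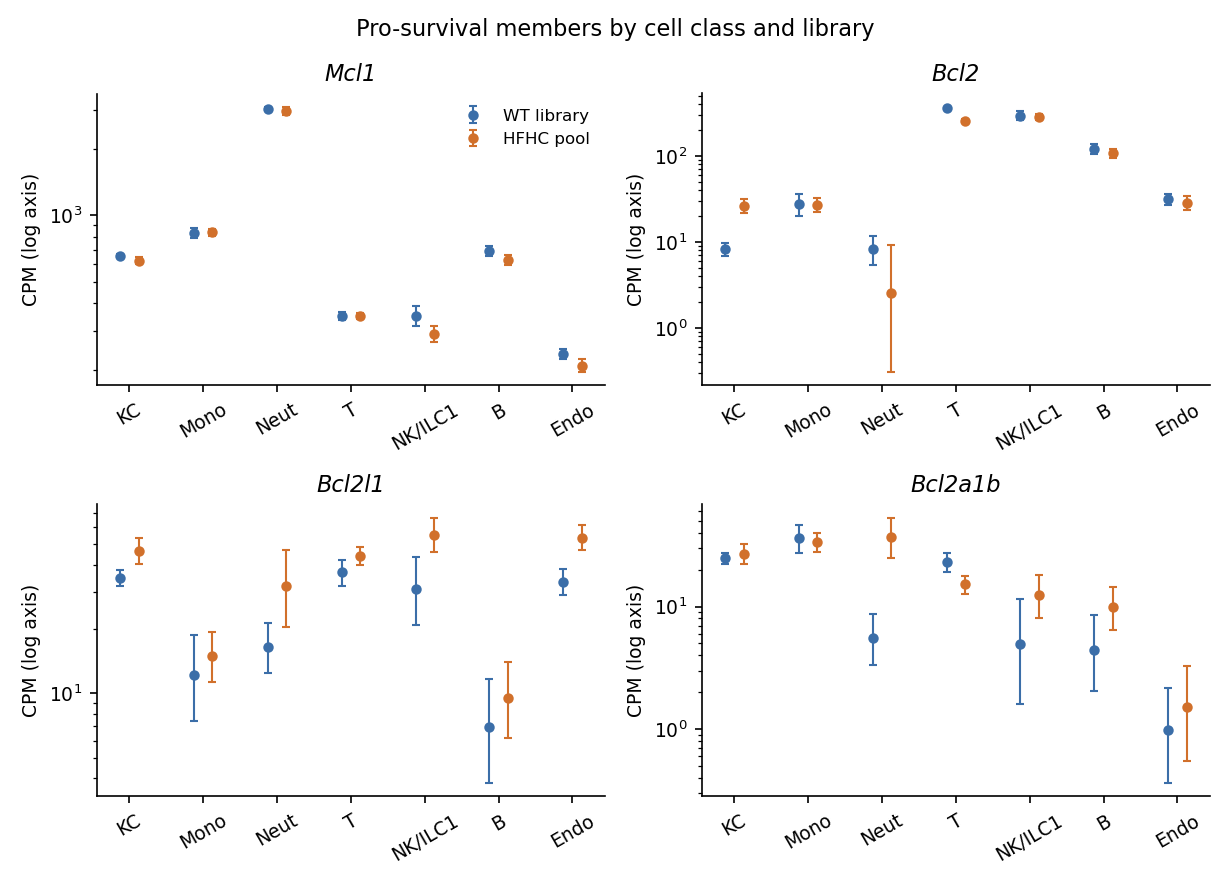
Level in CPM on log axes (y axis) of the 4 pro-survival members in 7 cell classes (x axis: KC, monocytes, neutrophils, T cells, NK or ILC1 cells, B cells and endothelial cells). Points are the WT library (blue) and the HFHC pool (orange) with exact Poisson 95% intervals, and Mcl1 is at 3051 and 2972 CPM in neutrophils while Bcl2 is highest in T and NK or ILC1 cells.

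Bcl2, the pro-survival protein that gave the family its name, was a lymphocyte transcript in both libraries. T cells held 357 CPM (342 to 373) in the WT library and 257 CPM (247 to 267) in the pool. NK or ILC1 cells held 294 and 284 CPM, a range inside that of T cells. B cells followed at 120.5 and 108 CPM, below both of these classes and above all others. Endothelial cells had 31.3 and 28.5 CPM and monocytes 27.4 and 27.1 CPM, with counting intervals that overlapped. Neutrophils had the least, though hardly less than KCs in the WT library, with 28 UMIs (8.22 CPM) in the WT library and 2 UMIs (2.54 CPM) in the pool. Thinned to 1000 UMIs, 27.4% of T cells of the WT library and 20.6% of those of the pool held a Bcl2 UMI, and 0.958% and 0.597% of hepatocytes did. The gene lies at chr1:106538178-106714274 on the minus strand, and an exon of D630008O14Rik overlaps it on the other strand.

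Within T cells and monocytes, Bcl2 levels stood apart between clusters. Among T cells, the cluster led by Cxcr6 and Gm2682, which also counted Bcl2 among its leading genes although Bcl2 was not used to form it, held 771 CPM in the WT library and 424 in the pool (63 UMIs). The larger cluster led by Cxcr6 and Tcrg-C2 held 392 and 367 CPM, the cluster led by Cd8a 261 and 289 CPM, and the cluster led by Foxp3 and Tcf7 153 and 145 CPM. The Cxcr6 and Tcrg-C2 cluster made up 63.3% of T cells of the WT library and 24.0% of those of the pool, and its log2 ratio was -0.09, against -0.08 in the Foxp3 cluster, 0.13 in the Cd8a cluster, -0.85 in the Cxcr6 and Gm2682 cluster and -0.47 in the sum of all T cells. Among monocytes, Bcl2 was at 95.7 and 116 CPM in the cluster led by Ace, a marker of the patrolling type, and at 8.64 and 10.4 CPM in the cluster led by F13a1.

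In KCs the Bcl2 level was low and stood apart between the libraries, at 8.27 CPM (127 UMIs) in the WT library and 26.1 CPM (112 UMIs) in the pool, a log2 ratio of 1.66 (1.28 to 2.04). In the largest KC cluster, led by C6, it was at 4.08 and 25.2 CPM. A small KC cluster led by Cd163 and Kcnj16, with a T cell marker score of 0.69, held 93.3 and 96.5 CPM in 89 and 15 cells. The summed T cell markers of all KCs were at 139 and 158 CPM, against 9191 and 9428 CPM in T cells. Without the 460 and 85 KCs that held a UMI of Cd3d, Cd3e, Cd3g, Trac or Trbc2 the levels were 4.597 and 26.7 CPM and the log2 ratio was 2.53. When each KC counted equally, thinned to 1000 UMIs, 26 of 2783 cells (0.934%, 0.611 to 1.37) and 6 of 474 cells (1.27%, 0.466 to 2.73) held a Bcl2 UMI, near the shares in hepatocytes, and the levels were 9.70 and 12.7 CPM with too few UMIs for a ratio. Unthinned, the shares were 3.25% and 14.4%. Thinned to 2000 UMIs, they were 1.35% and 2.63%. The thinned values rest on too few cells to tell whether the difference holds at equal depth. The monocyte gene Ly6c2 was at 15.1 and 79.3 CPM in these KCs, and its part in the Bcl2 values was not tested.

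Bcl2l1, which encodes BCL-XL, had a flatter pattern. Endothelial cells (33.3 and 53.7 CPM), NK or ILC1 cells (30.7 and 55.5 CPM), KCs (34.8 and 46.7 CPM) and T cells (36.8 and 44.2 CPM) had overlapping ranges. In each library these 4 classes lay above neutrophils (16.4 and 31.8 CPM), then monocytes (12.2 and 15.0 CPM), then B cells (6.94 and 9.52 CPM). Counting intervals of neutrophils overlapped those of all 4 classes in the pool. In the WT library they overlapped those of NK or ILC1 cells and monocytes. The intervals of monocytes and B cells overlapped in both libraries. Bcl2l1 was the only pro-survival member that was higher in the pool in each of the 4 classes in which it had enough UMIs, with log2 ratios of 0.26 in T cells, 0.43 in KCs, 0.69 in endothelial cells and 0.82 in NK or ILC1 cells, none of them past 2-fold. Monocyte-derived macrophages (MoMFs), with 82 and 100 cells, held 50.3 and 66.9 CPM. Those values rest on 15 and 55 UMIs and lie above both values in monocytes. The gene lies at chr2:152780668-152831728 on the minus strand.

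Bcl2a1b is 1 of several near-identical copies of the mouse A1 gene, a pro-survival member known to respond to NF-kappaB. It was at 35.9 and 33.7 CPM in monocytes, 24.7 and 26.8 CPM in KCs, 23.0 and 15.1 CPM in T cells, and 0.990 and 1.51 CPM in endothelial cells. Within monocytes most of it lay in the cluster led by Ly6i and Cxcl9, at 73.4 and 54.3 CPM. The cluster led by F13a1 held 2.88 and 3.71 CPM and that led by Ace 20.8 and 23.9 CPM (5 and 8 UMIs). The Ly6i cluster was intermediate, with a monocyte marker score of 1.32 and an MoMF score of 1.015. Over the alternatives the monocyte level fell as low as 7.49 CPM in the WT library and 7.06 CPM in the pool, below the KC levels above. In neutrophils, 19 UMIs (5.58 CPM) in the WT library and 29 UMIs (36.9 CPM) in the pool were too few for the ratio. The copy Bcl2a1a, with enough UMIs in neutrophils, was at 13.5 CPM (46 UMIs) and 85.2 CPM (67 UMIs), a log2 ratio of 2.65 (2.09 to 3.23), and Bcl2a1d was at 4.11 CPM (14 UMIs) and 54.7 CPM (43 UMIs). The last 500 bases of the longest annotated transcripts of Bcl2a1a, Bcl2a1b and Bcl2a1d were 98.8% to 99.4% identical, so the split of reads among the copies is uncertain. An exon of Gm29094 also overlaps Bcl2a1b on the same strand. NF-kappaB targets moved beside these copies in neutrophils: 7 of the 9 list genes tested were past 2-fold higher in the pool and none lower, with a median log2 ratio of 3.14 beside 0.03 over all genes, and their part in the A1 values was not tested.

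The region before the start of Bcl2a1b is shown because the copies share it and Bcl2a1a was higher in neutrophils of the pool. Bcl2a1b and Bcl2a1d had too few UMIs there for a ratio. With reads split uncertainly among them, the 3 copies are not separate observations. The 250 bases before the RefSeq starts were used, which for Bcl2a1b reach past the GENCODE start. Aligned stretches of these windows of Bcl2a1a, Bcl2a1b and Bcl2a1d were 97.54% to 99.51% identical (RefSeq, GRCm38.p6). The Bcl2a1b window is chr9:89199023-89199272, plus strand, 5′ to 3′, with both strands searched. Capitals mark 1 match of TGANTCA and 1 of GGGCGG (GC box) on the other strand, with no overlap of the 2 matches. TGANTCA is a loose form of the AP-1 motif in which N is any base. The middle base here is A, so the match is not called an AP-1 site.
Bcl2a1b: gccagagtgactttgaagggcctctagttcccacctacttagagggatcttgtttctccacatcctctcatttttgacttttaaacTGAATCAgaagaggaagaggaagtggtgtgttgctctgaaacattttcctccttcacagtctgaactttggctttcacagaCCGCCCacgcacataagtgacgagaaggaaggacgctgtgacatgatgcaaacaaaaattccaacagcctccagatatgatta
TGANTCA was in 6.75% and GGGCGG in 32.7% of 32851 such windows. Neither GGGANTTCC (NF-kappaB) nor CCAAT was in this window.

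For each pro-survival member the genes outside the family with the most similar pattern were found from log2(CPM + 10) across 10 named classes of at least 100 cells, among 8426 genes with at least 500 UMIs in each library, by the smaller of the 2 libraries' Pearson correlations. Classes of 1 library share its depth and preparation, so these are descriptions. Mcl1 was most like Mboat7 (r = 0.97 in both libraries) and Dck (0.96 and 0.98). Bcl2 was most like AU020206 (0.96 and 0.96), Flt3l (0.95 and 0.97) and Gimap7 (0.98 and 0.95). Bcl2l1 had no close match, with Nck1 (0.85 and 0.86) first, followed by Rhoc and Pitpnc1. Bcl2a1b was most like Gbp2 (0.83 and 0.86), an interferon-induced GTPase, then Zbp1 and Rnf19b.

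The effector genes Bax and Bak1, whose products form the pore, were lower in the pool in all 7 classes. In KCs Bax was at 135 CPM (130 to 141) in the WT library and 107 CPM (97.7 to 118) in the pool, and Bak1 at 137 CPM (131 to 143) and 95.9 CPM (86.8 to 106). Monocytes held the most Bak1, 202 and 144 CPM, above KCs in both libraries. Endothelial cells showed the widest gap, with Bax at 169 and 95.6 CPM and Bak1 at 75.9 and 39.8 CPM. In the same cells the hepatocyte gene Alb was at 551 and 2681 CPM, hepatocyte markers made up 0.170% and 0.565% of UMIs, the T cell markers summed to 239 and 518 CPM and the endothelial gene Stab2 was at 2458 and 1368 CPM, and their part in the Bax and Bak1 values was not tested. The log2 ratios of Bax ran from -0.82 in endothelial cells to -0.08 in neutrophils and those of Bak1 from -0.92 in endothelial cells to -0.29 in neutrophils. None passed 2-fold, and the intervals included 0 in neutrophils, -0.71 to 0.44 for Bax and -0.86 to 0.19 for Bak1, and for Bax in NK or ILC1 cells, -0.58 to 0.14. In endothelial cells both passed 2-fold when cells were thinned to 1000 UMIs, with log2 ratios of -1.24 and -1.15. Of the 3147 genes tested in all 7 classes, 17.7% were lower in the pool in every class. Bax in neutrophils was slightly higher in the pool without integration and with doublets removed, and its log2 ratio ran from -0.34 to 0.06 over the alternatives. Neutrophils had the least Bax, at 44.0 and 40.7 CPM, below all other classes.

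The bases before RefSeq starts of Bax and Bak1 are shown because both effectors were lower in the pool in all 7 classes. The Bak1 window lies inside the gene as placed by GENCODE (chr17:27019810-27029009), past its GENCODE start. Both are on the minus strand and are printed 5′ to 3′ along it, as 250 bases before a RefSeq start (GRCm38.p6), Bax at chr7:45466899-45467148 and Bak1 at chr17:27028628-27028877. Capitals mark GGGCGG on either strand, found at 2 places before Bax, and CACGTG (E-box), found at 1 place, with no overlap among them. CACGTG was in 6.02% of all such windows.
Bax: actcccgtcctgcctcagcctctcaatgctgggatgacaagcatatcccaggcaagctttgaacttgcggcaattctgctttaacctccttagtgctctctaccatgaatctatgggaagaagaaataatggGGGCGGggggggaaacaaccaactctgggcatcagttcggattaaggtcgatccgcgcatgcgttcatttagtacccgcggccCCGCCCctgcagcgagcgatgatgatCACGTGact
Bak1: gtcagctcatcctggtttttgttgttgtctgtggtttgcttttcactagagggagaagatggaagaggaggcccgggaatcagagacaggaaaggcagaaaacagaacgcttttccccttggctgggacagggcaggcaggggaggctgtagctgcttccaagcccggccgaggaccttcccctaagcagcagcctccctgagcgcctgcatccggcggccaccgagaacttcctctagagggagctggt
Neither GGGCGG nor CACGTG was in the Bak1 window, and the other letters searched there (the CCAAT and TATA boxes, and the AP-1, CRE, heat shock and NF-kappaB motifs) gave no match. An exon of Ggnbp1 overlaps Bak1 on the other strand, and an exon of Gm45808 overlaps Bax on the same strand, so reads there could be counted for either gene.

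**Figure D2:**
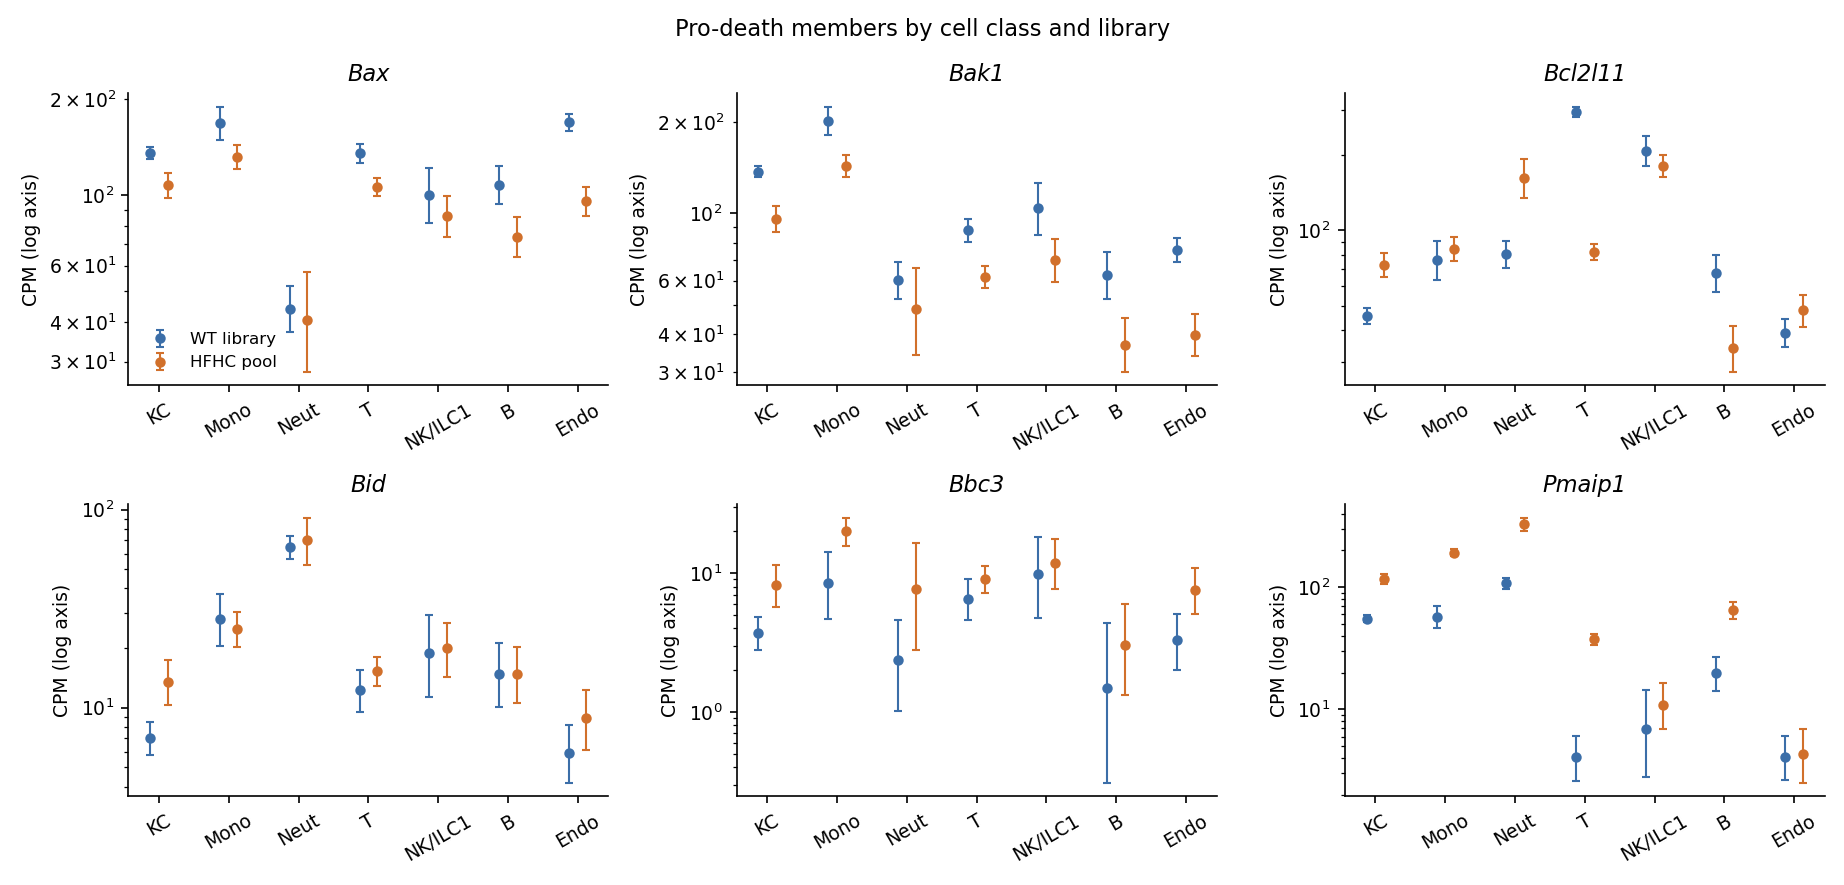
Level in CPM on log axes (y axis) of the 6 pro-death members in the 7 cell classes (x axis), for the WT library (blue) and the HFHC pool (orange) with exact Poisson 95% intervals. Bax and Bak1 are lower in the pool in all 7 classes (Bax in neutrophils not under every setting), Bcl2l11 in T cells is at 295 and 81.9 CPM, and Pmaip1 is higher in the pool in KCs, monocytes, neutrophils, T cells and B cells.

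Bcl2l11, which encodes the BH3-only protein BIM, a known trigger of lymphocyte death, differed in both directions. T cells held 295 CPM (281 to 310; 1668 UMIs) in the WT library and 81.9 CPM (76.2 to 87.9; 768 UMIs) in the pool, a log2 ratio of -1.85 (-1.98 to -1.73). The level was lower in the pool in each of the 4 T cell clusters, at 355 and 92.9 CPM in the Cxcr6 and Tcrg-C2 cluster, 321 and 135 CPM in the Cxcr6 and Gm2682 cluster, 111 and 53.03 CPM in the Foxp3 cluster and 218 and 102 CPM in the Cd8a cluster. Their log2 ratios ran from -1.93 to -1.08, so the difference was found within clusters as well as in their sum. B cells held 67.4 and 33.9 CPM (log2 ratio -0.99), just short of 2-fold. NK or ILC1 cells differed little in sum, at 207 and 181 CPM, where the Xcl1 cluster had 219 and 139 CPM and the Klra8 cluster 180.2 and 229 CPM.

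In neutrophils and KCs Bcl2l11 was higher in the pool. Neutrophils had 80.1 CPM (70.9 to 90.2) in the WT library and 161 CPM (135 to 192) in the pool, a log2 ratio of 1.02 (0.70 to 1.32) that fell below 2-fold under 6 of 15 alternatives. KCs had 45.5 and 72.8 CPM (log2 ratio 0.68, 0.48 to 0.87), endothelial cells 38.9 and 47.9 CPM (0.30, 0.02 to 0.58) and monocytes 76.1 and 84.2 CPM (0.14, -0.16 to 0.46). Among the larger KC clusters, those led by C6 (44.8 and 78.0 CPM) and by Cd163 and Kcna2 (37.4 and 62.4 CPM) were higher in the pool. The Vsig4 cluster had 37.3 CPM and, from 6 UMIs, 25.9 CPM. Of KCs thinned to 1000 UMIs, 4.38% (3.65 to 5.21) and 6.33% (4.31 to 8.91) held a Bcl2l11 UMI, with overlapping intervals. Thinned to 1000 UMIs, 20.6% of T cells of the WT library and 6.35% of those of the pool held a Bcl2l11 UMI, against 1.18% and 0.828% of hepatocytes. Glucocorticoids are known to raise Bcl2l11 in lymphocytes. Of 11 glucocorticoid response genes tested in T cells, 3 were past 2-fold lower in the pool and 1 higher, with a median log2 ratio of -0.75 beside 0.05 over all genes. That median was -0.48 in B cells, with 3 of 6 genes past 2-fold lower and none higher, -0.09 in NK or ILC1 cells, -0.22 in neutrophils, -0.46 in KCs, -0.95 in monocytes and -1.19 in endothelial cells. The part of this response in the Bcl2l11 values was not tested.

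The bases before the 5′ start of Bcl2l11 are shown because the gene was lower in T cells and higher in neutrophils of the pool. The window is chr2:128125788-128126037 on the plus strand (RefSeq, GRCm38.p6), 5′ to 3′, and capitals mark 3 matches of GGGCGG and 1 of CCAAT on the other strand, with no overlap.
Bcl2l11: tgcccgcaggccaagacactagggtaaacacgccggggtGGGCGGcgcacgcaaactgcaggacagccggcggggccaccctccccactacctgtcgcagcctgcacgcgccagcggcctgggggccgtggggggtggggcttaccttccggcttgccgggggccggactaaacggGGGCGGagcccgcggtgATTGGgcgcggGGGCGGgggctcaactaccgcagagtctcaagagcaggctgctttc
CCAAT was in 33.8% of such windows. TATAAA (in 12.4% of windows), GAANNTTC (heat shock, 6.69%), TGACGTCA (CRE, 1.55%) and GGGANTTCC (1.43%) were in none of the 4 windows shown. The window was 72.0% G and C.

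Bid, which links death receptors to mitochondria once cut by caspase 8, was highest in neutrophils, at 64.6 and 69.9 CPM. Among the 7 classes, monocytes followed at 28.0 and 24.997 CPM, then NK or ILC1 cells at 18.8 and 19.9 CPM. KCs held 7.03 CPM (108 UMIs) in the WT library and 13.5 CPM (58 UMIs) in the pool, a log2 ratio of 0.96 (0.46 to 1.42), under 2-fold. An exon of Bcl2l13 overlaps Bid on the other strand. Bbc3, which encodes PUMA, a p53 target, was low everywhere, from 1.49 CPM in B cells of the WT library to 19.998 CPM in monocytes of the pool. Counting intervals of the libraries overlapped in neutrophils, T cells, NK or ILC1 cells and B cells. They lay apart in KCs, monocytes and, by little, endothelial cells (20 and 30 UMIs), where the level was higher in the pool. Of the 7 classes, only T cells had enough UMIs for a ratio (6.55 and 9.07 CPM, log2 ratio 0.45, -0.10 to 1.07). The T cell clusters took different shares of the class in each library. The Foxp3 cluster held 13.4 and 9.46 CPM and the Cd8a cluster 13.5 and 12.3 CPM. The Cxcr6 and Gm2682 cluster held 9.52 and 6.73 CPM and the Cxcr6 and Tcrg-C2 cluster 3.65 and 3.87 CPM. These cluster values rest on few UMIs. Thinned to 1000 UMIs, 0.678% and 0.620% of T cells held a Bbc3 UMI. Monocytes had 14 and 76 UMIs (8.52 and 19.998 CPM) and KCs 57 and 35 UMIs (3.71 and 8.16 CPM).

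Pmaip1, which encodes NOXA, the BH3-only partner of MCL1, had the widest difference among the members. Of the 7 classes, 5 had enough UMIs, and it was past 2-fold higher in the pool in each. This pattern was shared by 1.96% of the 5654 genes tested in at least 5 classes. Enough meant 100 UMIs in both libraries together. Monocytes, T cells and B cells, with 94, 23 and 40 UMIs in the WT library, met this only through the pool, where the gene was high. The count of classes thus depends in part on the rule. Hepatocytes, with 27 and 116 UMIs, had a log2 ratio of 0.45 (-0.12 to 1.15). KCs held 55.2 CPM (51.5 to 59.0) in the WT library and 117 CPM (107 to 128) in the pool, a 2.12-fold higher level. Monocytes held 57.2 and 192 CPM (3.32-fold), neutrophils 107 and 327 CPM (3.04-fold) and B cells 19.8 and 64.7 CPM (3.20-fold). T cells held 4.07 CPM (23 UMIs) and 37.4 CPM (351 UMIs), 8.83-fold in the sum of clusters that took different shares of the T cells in each library. NK or ILC1 cells, with 7 and 23 UMIs, and endothelial cells, with 25 and 17 UMIs (4.12 and 4.29 CPM), had too few for a ratio. Intervals of the log2 ratio stayed above 1 in monocytes (1.43 to 2.07), neutrophils (1.37 to 1.84), T cells (2.59 to 3.88) and B cells (1.20 to 2.24), and reached 0.92 in KCs (0.92 to 1.25).

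Within T cell clusters the log2 ratio of Pmaip1 was smaller than the 3.14 of their sum. It was 2.32 in the Foxp3 cluster (8.92 and 48.7 CPM), which held 20.6% and 39.2% of T cells, and 1.79 in the Cd8a cluster (10.8 and 46.3 CPM), which held 5.01% and 34.1%. In the Cxcr6 and Tcrg-C2 cluster, with 63.3% and 24.0% of T cells, it was 1.87, from 8 and 19 UMIs (2.08 and 8.17 CPM). These cluster values rest on few UMIs in the WT library, 10 in the Foxp3 cluster and 4 in the Cd8a cluster. The Pmaip1 difference was also found in all 3 monocyte clusters, at 62.1 and 199 CPM in the Ly6i cluster, 24.5 and 143 CPM in the F13a1 cluster and 137 and 340.5 CPM in the Ace cluster. Among the larger KC clusters it was found in the C6 cluster (55.9 and 114 CPM) and the Cd163 cluster led by Cd163 and Kcna2 (53.5 and 103 CPM), while the Vsig4 cluster had 59.9 CPM and, from 10 UMIs, 43.1 CPM. In KCs the ratio missed 2-fold under 1 of 15 alternatives, cells gated by markers (0.91). For gated KCs without the upper limit of genes per cell the log2 ratio was 1.40, from 54.7 and 144 CPM. Thinned to 1000 UMIs, 5.17% (4.38 to 6.06) of KCs of the WT library and 8.86% (6.46 to 11.8) of those of the pool held a Pmaip1 UMI, against 0.221% and 0.578% of hepatocytes. In monocytes the thinned shares were 5.43% and 17.3%, and in neutrophils 8.20% of the 1609 cells deep enough and 24.3% of 338. The unthinned shares in KCs, 19.7% and 35.4%, also carry the greater depth of the pool. The list of 20 genes that respond to tissue dissociation had a median log2 ratio above that of all genes in each of the 7 classes, from 0.83 in neutrophils to 1.69 in NK or ILC1 cells, beside -0.02 to 0.05 for all genes. Of those tested, 16 of 18 were higher in the pool in neutrophils and 7 passed 2-fold, and 17 of 20 were higher in monocytes and 9 passed. In KCs 20 of 20 were higher and 11 passed 2-fold, where 8.15% of all genes tested passed in either direction. The 11 were Fos, Fosb, Jun, Egr1, Atf3, Ier2, Ier3, Nr4a1, Hspa1a, Hspa1b and Dnajb1. Their part in the Pmaip1 values was not tested. Of 10 p53 targets, 7 were tested in KCs, 6 in T cells, 4 in monocytes and in neutrophils, and 3 in B cells. Their medians lay between -0.43 in neutrophils and 0.24 in T cells. None of those tested was past 2-fold higher in any class, and the part of p53 in the Pmaip1 values was not tested. Pmaip1 lies at chr18:66458533-66465565 on the plus strand.

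**Figure D3:**
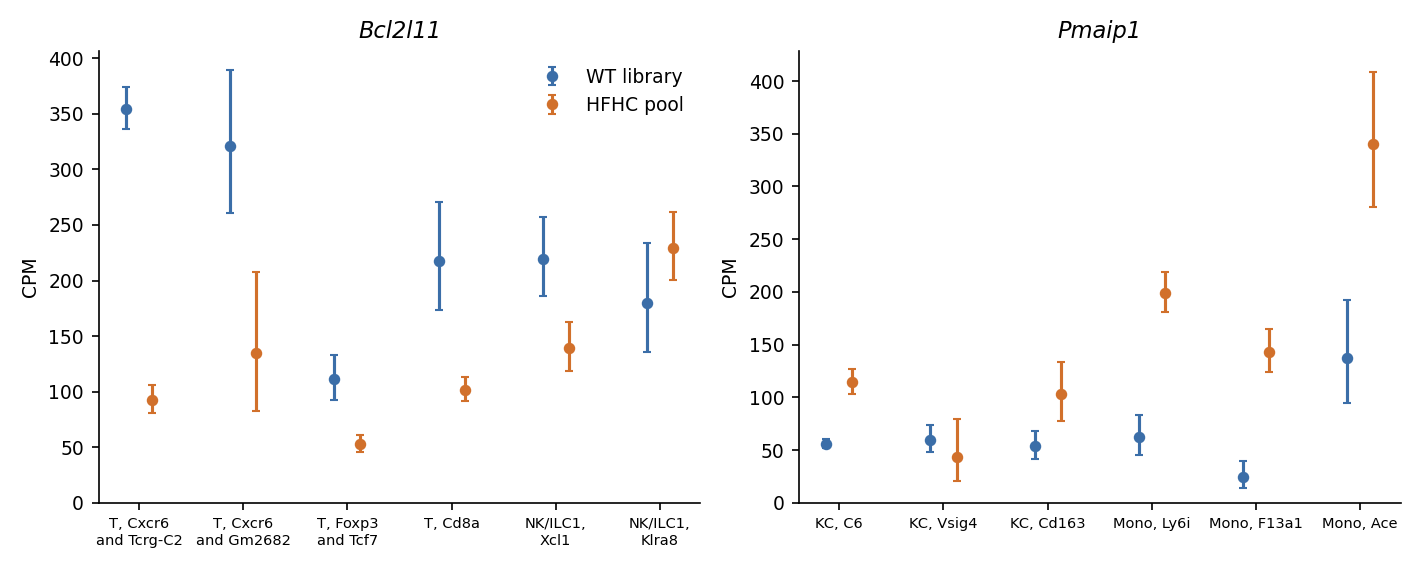
Level in CPM (y axis, from 0) of Bcl2l11 in 4 T cell and 2 NK or ILC1 clusters and of Pmaip1 in 3 KC and 3 monocyte clusters (x axis, named by leading genes), for the WT library (blue) and the HFHC pool (orange) with exact Poisson 95% intervals. Bcl2l11 is lower in the pool in all 4 T cell clusters, with 355 and 92.9 CPM in the first, and Pmaip1 is higher in the pool in all 3 monocyte clusters.

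By class, few members passed 2-fold. The rule asked for at least 100 UMIs in both libraries together, which 51 of the 70 pairs of a member and a class met, and 8 pairs passed, 7 higher and 1 lower in the pool. In KCs 2 of 9 members tested passed (Bcl2 and Pmaip1), where 8.15% of all 9340 genes tested did, and Bbc3 was not tested. In monocytes 1 of 8 passed (Pmaip1; background 5.8%), in neutrophils 2 of 6 (Pmaip1 and Bcl2l11; background 13.2%), in T cells 2 of 10 (Pmaip1 higher and Bcl2l11 lower; background 8.96%) and in B cells 1 of 6 (Pmaip1; background 5.98%). None of 6 passed in NK or ILC1 cells (background 6.2%) and none of 6 among endothelial cells (background 14.3%). The median log2 ratio of the members tested was 0.43 in KCs, -0.07 in monocytes, 0.05 in neutrophils, -0.18 in T cells, -0.21 in NK or ILC1 cells, -0.35 in B cells and -0.15 in endothelium, beside -0.02 to 0.05 for all genes. The median of the pro-survival members tested was below that of the pro-death members in KCs (0.28 and 0.68), neutrophils (-0.04, Mcl1 alone, and 0.13) and T cells (-0.24 and -0.02). It was above it in monocytes (-0.03 and -0.18), NK or ILC1 cells (-0.05 and -0.23), B cells (-0.15 and -0.65) and endothelial cells (-0.13 and -0.82).

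**Figure D4:**
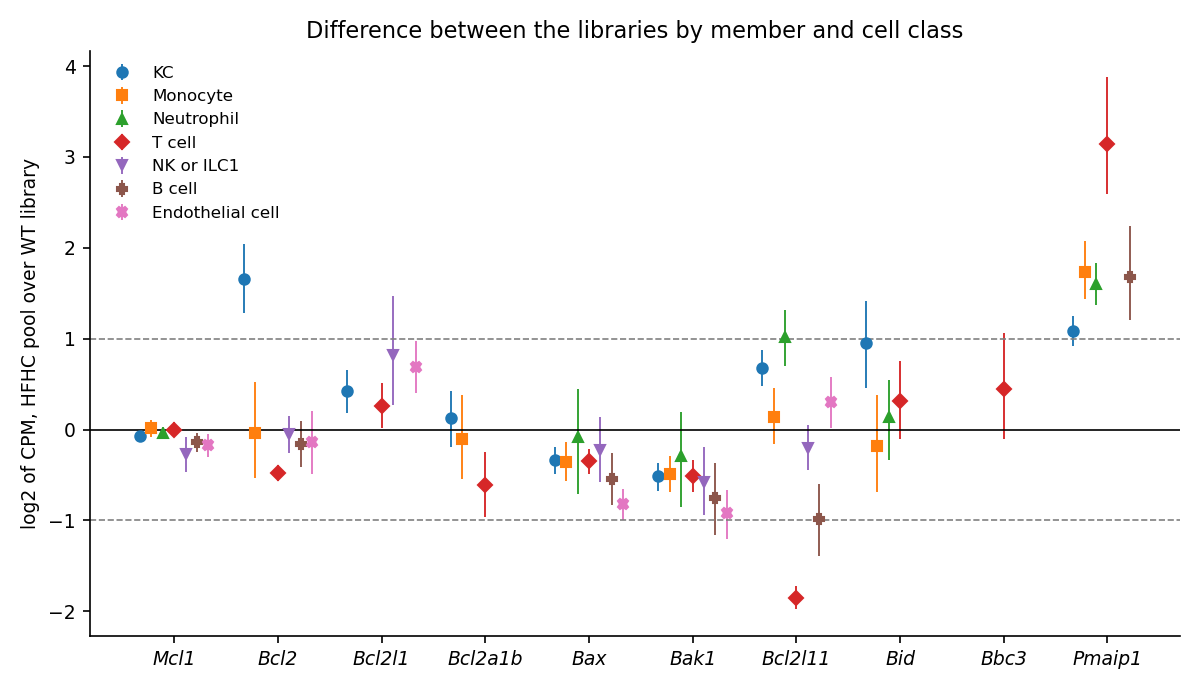
Log2 ratio of CPM, HFHC pool over WT library (y axis), of each member (x axis, pro-survival first) in the 7 cell classes (symbols), for pairs with at least 100 UMIs, with intervals from an exact binomial split of the UMIs. Dashed lines mark 2-fold. Mcl1 lies near 0 in every class, Bax and Bak1 lie below 0, Bcl2l11 spreads from -1.85 in T cells to 1.02 in neutrophils, and Pmaip1 lies above 1 in all 5 classes shown.

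The balance of the family was given as the share of UMIs from the 4 pro-survival members among the UMIs of all 10. KCs were at 65.2% (64.5 to 65.9) in the WT library and 63.5% (62.2 to 64.9) in the pool, with intervals that overlapped. The size of this gap depended on the upper limit of genes per cell. Above it lay 68 cells of the WT library and 814 of the pool. KCs gated by markers numbered 3135 and 392 with the limit, and 3168 and 921 without it. Their share was 65.6% and 64.6% with the limit, and 65.4% and 62.3% without it. Monocytes were at 62.6% (60.7 to 64.6) and 60.5% (59.2 to 61.8), also with intervals that overlapped. Neutrophils had the highest share in both libraries, 89.6% (89.0 to 90.1) and 82.3% (80.9 to 83.7), lower in the pool. T cells differed the other way, at 58.6% (57.5 to 59.7) and 68.1% (67.2 to 69.1), as did endothelial cells, at 50.3% (48.7 to 51.9) and 58.9% (56.7 to 61.1). NK or ILC1 cells, at 60.3% and 62.8%, and B cells, at 75.1% and 76.9%, had overlapping intervals. The share was thus lower in the pool in 3 of 7 classes.

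Different members carried the shares in each class. In neutrophils Pmaip1 made up 3.12% and 8.83% of the members' UMIs and Bcl2l11 2.33% and 4.37%. In T cells Bcl2l11 made up 22.6% and 8.38%. In KCs the lower shares of Bax (12.3% and 9.44%) and Bak1 (12.4% and 8.43%) stood against higher shares of Pmaip1 (4.99% and 10.3%) and Bcl2l11 (4.12% and 6.40%). Without Mcl1 the pro-survival share was 15.0% and 19.4% in KCs, 7.77% and 9.81% in neutrophils and 43.5% and 50.4% in T cells, and it was lower in the pool in 1 of 7 classes. The direction for KCs thus turned when Mcl1 was left out. MoMFs, at 65.9% (60.8 to 70.8) and 61.8% (58.8 to 64.7), overlapped KCs and monocytes.

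**Figure D5:**
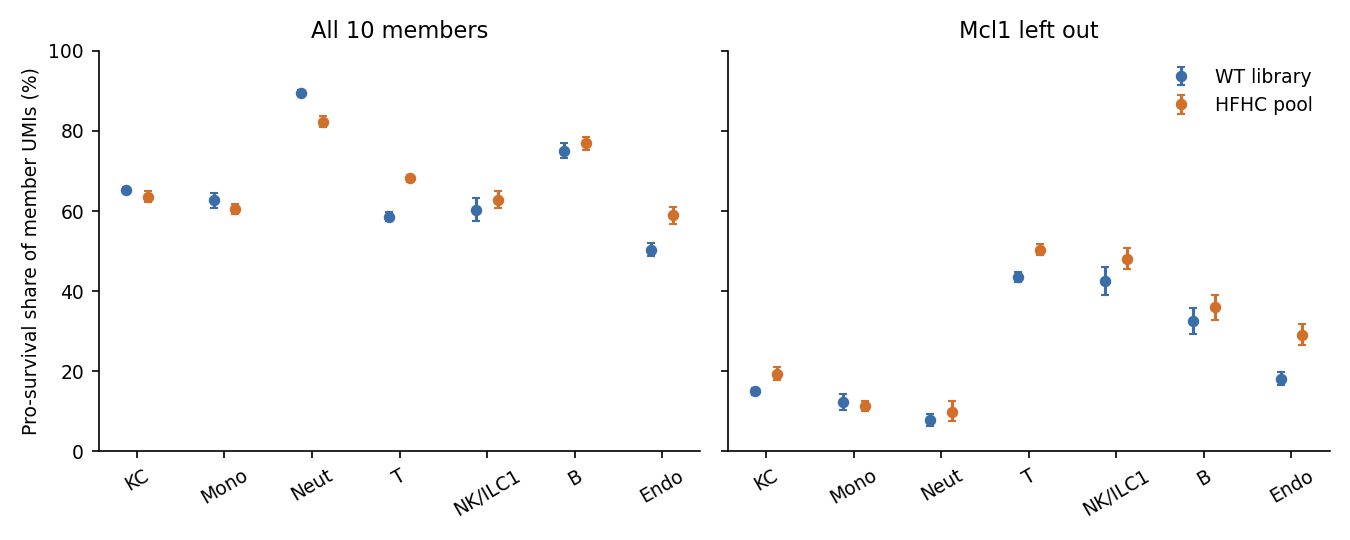
Pro-survival share of the members' UMIs in percent (y axis, 0 to 100) by cell class (x axis), with all 10 members (left) and without Mcl1 (right), for the WT library (blue) and the HFHC pool (orange) with exact binomial 95% intervals. Neutrophils are highest with Mcl1, at 89.6% and 82.3%, and lowest without it, at 7.77% and 9.81%.

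Further genes of the pathway differed little. Of 17 further genes, which were other BCL2 family genes plus Vdac2 and Bcap31 from outside the family, 16 had a column. In KCs 11 had enough UMIs, with a median log2 ratio of -0.01 beside 0.01 over all genes. One passed 2-fold there, Bnip3, a mitophagy receptor induced by low oxygen, at 12.9 and 32.7 CPM, and it also passed in endothelial cells (48.7 and 145 CPM) and B cells. None passed in monocytes, and in T cells Bik, a BH3-only gene, was lower (14.5 and 6.61 CPM). Of 15 genes that act downstream of mitochondria, such as caspases and their inhibitors, 14 were tested in KCs with a median of -0.17, and Birc5, a gene of dividing cells, alone passed (4.43 and 9.56 CPM). In T cells Naip2 was at 7.44 and 21.9 CPM (log2 ratio 1.53). In KCs 5 of 11 glucocorticoid response genes were past 2-fold lower in the pool (Fkbp5, Tsc22d3, Per1, Ddit4 and Klf9), and 4 of 10 NF-kappaB targets were past 2-fold higher (Tnfaip3, Tnf, Cxcl2 and Ccl4). In monocytes these counts were 4 of 9 and 3 of 10, and 9 of 20 dissociation genes were past 2-fold higher.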

How the data were processed

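Liver cells of the 2 libraries were measured as UMI counts per gene and cell. The authors deposited these counts as made by the BD Rhapsody WTA Analysis Pipeline (version 1.10.1) on GRCm38 with GENCODE release M19, without scaling. The table of the sample tag library was not analysed here, and 0 per-sample columns were set aside. The 10 members and the gene lists were chosen with earlier results of these data known.

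Cells with 200 to 4000 genes and at most 25% mitochondrial UMIs were kept. Clusters were built with Seurat 5.3.0 and sctransform 0.4.2 in R 4.3.3 (4000 features without the BCL2 family, 30 components, reciprocal integration, resolution 0.8, and 0.5 for KCs, monocytes and MoMFs), and named from markers. The thresholds for naming, and for leaving out clusters with markers of a second class, were set after the clusters were seen. Doublets called by Scrublet (1908 and 392 cells) were removed only as an alternative. UMIs were summed per class and library, and log2 ratios were taken of CPM with 1 UMI added, for genes with at least 100 UMIs. A ratio past 2-fold was called. Genes named besides the members were the called genes of each list and the 3 most similar genes of each pro-survival member, of which some are not reported here. With 1 library per condition no p-value was computed. The ratio step was tested on simulated data with known changes. Loci are from GENCODE release M21 and promoters from RefSeq on GRCm38.p6. Alternatives covered filters, clustering, depth, scaling and the members counted.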

Additional observations from a re-analysis of the deposited data

Results flagged for a closer look

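Bcl2l11 differed in opposite directions in 2 cell classes under the same contrast. Its log2 ratio, HFHC pool over WT library, was 1.02 in neutrophils (80.1 and 161 CPM) and -1.85 in T cells (295 and 81.9 CPM), with 1 library on each side. The difference between the 2 classes was not tested.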

How the results depend on the processing

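No paired analysis was possible because each condition had 1 library and the results come from no test. For the same reason no library could be left out. No result changed its direction while past 2-fold. The number of members past 2-fold in neutrophils, 2, was 1 with a mitochondrial limit of 10%, thinned to 1000 UMIs or with median-of-ratios scaling, and 4 with a minimum of 20 UMIs. In B cells, 1 became 0 with the 10% limit or thinned, and 2 at resolution 1.0, with median-of-ratios scaling, with totals without mitochondrial and hepatocyte genes or with the minimum of 20 UMIs. In KCs, 2 became 1 with marker-gated cells or thinned, and 3 with the 10% limit, with no upper gene limit and marker-gated cells, at resolution 1.0 or with 20 UMIs. In monocytes, 1 became 2 without integration or with 20 UMIs. In endothelial cells, 0 became 2 thinned and 1 with 20 UMIs, and in NK or ILC1 cells 0 became 1 with 20 UMIs. In T cells, 2 became 1 in the Cxcr6 cluster alone, an alternative chosen after seeing the data, as were leaving out cells with T cell receptor UMIs, keeping mixed clusters and leaving out the intermediate monocyte cluster. The pro-survival share of KCs was 67.1% and 66.0% (WT library, HFHC pool) with the A1 copies summed, 15.0% and 19.4% without Mcl1 and 74.3% and 70.1% without Bax, and the classes with a lower share in the pool were 1 of 7 without Mcl1 and 4 of 7 without Bax or thinned, against 3. The cause of these changes was not tested. Log2 ratios of Bcl2l11 ran from -2.01 to -1.80 in T cells, those of Pmaip1 from 3.10 to 3.37 in T cells, 1.71 to 2.03 in monocytes, 1.49 to 1.78 in neutrophils, 1.59 to 1.75 in B cells and 0.91 to 1.40 in KCs. At this depth Bbc3 had enough UMIs for a ratio in 1 of 7 classes, Bcl2a1b in 3, and Bid and Bcl2l1 in 4 each.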

Other observations

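Conventional dendritic cells held more Pmaip1 than the 7 classes of the report in both libraries. They were at 161 CPM in the WT library and 403 CPM in the HFHC pool (log2 ratio 1.32), where Pmaip1 made up 13.6% and 28.6% of the members' UMIs. Their pro-survival share was 53.8% (52.1 to 55.4) and 48.0% (46.6 to 49.4). Plasmacytoid dendritic cells were at 29.1 and 119.6 CPM (log2 ratio 2.02), and MoMFs at 20.1 CPM (6 UMIs) and 160.5 CPM (132 UMIs).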
